A study of Mus musculus with 6 samples.

Results

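The 2 Y RNAs Rny1 and Rny3, the vault RNA Vaultrc5, the 7SK RNA Rn7sk, and the catalytic RNAs Rmrp (of RNase MRP) and Rpph1 (of RNase P) left short fragments in mouse testis. These 6 genes were taken by name from 3910 annotated structured noncoding RNA genes, of which 2026 had reads. A read belonged to a member when its 18 to 35 nt were found without mismatch on the sense strand of the gene. The study sequenced small RNA of whole testis from C57BL/6 mice that lack Dnmt3L, a cofactor of de novo DNA methylation, or Miwi2, a nuclear Piwi protein of fetal germ cells, with littermates as controls. The groups were Dnmt3L KO and Dnmt3L WT testes at 16.5 dpc (days post coitum), Dnmt3L KO and Dnmt3L WT testes at 10 dpp (days post partum), and Miwi2 KO and Miwi2 WT testes at 10 dpp. Each group was 1 library of total RNA, made from a pool of 7 or 8 animals at 16.5 dpc and of 3 animals at 10 dpp. No group therefore has a replicate, and no difference below has a replicate check or a p-value. In whole testis, fewer cells of a type and less RNA per cell cannot be told apart.

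All members are housekeeping RNAs that RNA polymerase III makes and that work inside protein particles. Y RNAs bind the Ro60 protein and fold back so that both ends pair in 1 stem, vault RNA sits in the large vault particle, and 7SK holds the transcription elongation factor P-TEFb inactive. RNase MRP acts in ribosomal RNA maturation and RNase P trims the 5′ ends of tRNA precursors. Short pieces of such RNAs are known from many tissues and appear in small RNA libraries beside miRNAs and piRNAs.

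The sequences below show which stretch of each RNA the reads came from. Sequences of the RNAs are from GENCODE vM21 on GRCm38, and capitals mark the most abundant fragments, each 5′ to 3′. Rny1 lies at chr6:47788069-47788180 on the minus strand and Rny3 at chr6:47781624-47781725 on the plus strand. Rny1 is shown whole because it gave a fragment from each end, and Rny3 because it gave nearly all of its reads from the 3′ end.
Rny1: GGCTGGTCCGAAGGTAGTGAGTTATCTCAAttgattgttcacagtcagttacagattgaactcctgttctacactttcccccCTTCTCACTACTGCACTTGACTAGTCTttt
Rny3: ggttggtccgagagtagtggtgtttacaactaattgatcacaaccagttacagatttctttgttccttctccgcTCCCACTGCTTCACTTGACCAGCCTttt
For Rmrp, at chr4:43492783-43493063 on the minus strand, bases 1 to 49 are shown, since 1 fragment of 30 nt held most of its reads.
Rmrp: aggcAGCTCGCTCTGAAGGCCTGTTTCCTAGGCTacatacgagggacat
For Rpph1, at chr14:50807449-50807767 on the minus strand, the most abundant read that runs past the annotated last base is shown as deposited, with the bases past that end in capitals.
Rpph1: attcagactactctcccccgccCTCT
For Rn7sk, at chr9:78175303-78175633 on the minus strand, bases 40 to 91 are shown around its most abundant read, which is also found in 8 other annotated genes.
Rn7sk: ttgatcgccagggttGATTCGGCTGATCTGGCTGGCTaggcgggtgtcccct

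The libraries held 28701563 to 47232494 reads, and 85.3% to 95.6% of the reads had 18 to 35 nt. Both Dnmt3L libraries of 10 dpp stood apart. Reads over 28 nt made up 0.124% of the 18 to 35 nt reads in Dnmt3L KO and 1.40% in Dnmt3L WT at 10 dpp, against 13.3% to 23.1% in the other 4 libraries. Reads in both ran to 100 nt at most, against 50 nt in the others. Any comparison of these 2 libraries with the others therefore also compares libraries of different read length, which in Dnmt3L testes cannot be told apart from the age of 10 dpp. miRNA genes that mark testis germ cells were all found (16 of 16), with a summed level of 3190 to 42368 RPM (reads per 1000000 reads of the library), and the Sertoli cell miRNA gene Mir202 had 30.3 to 425 RPM. The liver miRNA gene Mir122 had 0 to 6.64 RPM. Of the 2 muscle miRNA genes, Mir133a-1 had 16.9 to 236 RPM and Mir1a-2 had 0 to 1.08 RPM. The 2 nervous system miRNA genes together had 1.21 to 30.9 RPM.

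The members took 152496 sense reads and 24 antisense reads over the 6 libraries. Their summed level was 576 RPM in Dnmt3L KO and 423 RPM in Dnmt3L WT at 16.5 dpc, 546 and 549 RPM in Dnmt3L KO and WT at 10 dpp, and 869 and 855 RPM in Miwi2 KO and WT at 10 dpp. Y RNAs made up 71.5%, 75.0%, 93.5%, 77.6%, 50.7% and 47.8% of these reads in the same libraries. Per 100 nt of RNA, the median level over the 6 libraries was 283 RPM for Rny3, 129 RPM for Rny1, 34.4 RPM for Rmrp, 8.23 RPM for Rn7sk, 5.86 RPM for Vaultrc5 and 5.16 RPM for Rpph1. Rny3 was first and Rny1 second in each of the 6 libraries, while the other 4 changed places between libraries.

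**Figure D1:**
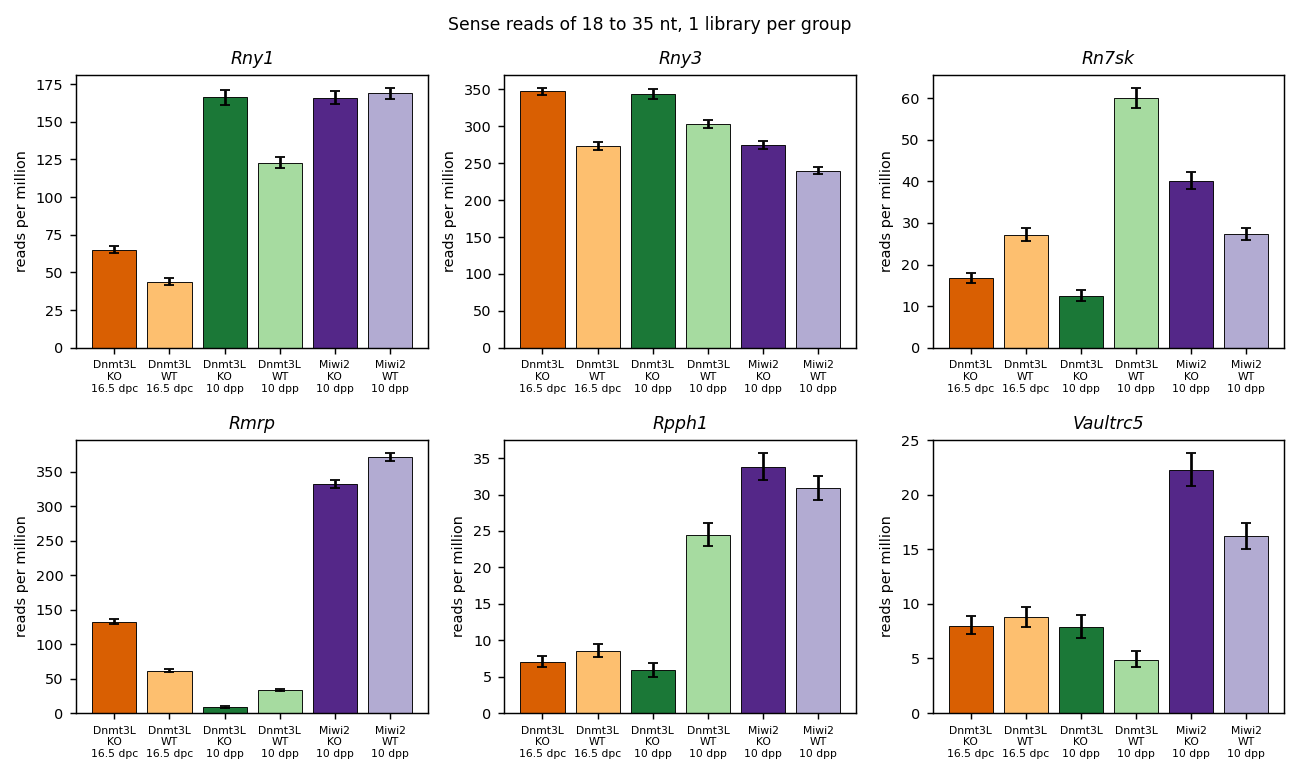
Level of each RNA in the 6 libraries, in RPM of 18 to 35 nt reads on the sense strand, with 95% exact Poisson intervals that cover counting error only; each bar is 1 library. Rny3 stayed between 240 and 347 RPM, while Rmrp ran between 9.02 and 372 RPM.

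Rny3, the steadiest member, had 347 RPM in Dnmt3L KO and 273 RPM in Dnmt3L WT testes at 16.5 dpc, 344 and 303 RPM in Dnmt3L KO and WT at 10 dpp, and 275 and 240 RPM in Miwi2 KO and WT at 10 dpp. Its highest level was 1.45 times its lowest. At least 94.8% of its reads in every library, and 98.4% at most, ended within 5 nt of the annotated 3′ end, and 0.506% to 2.21% began within 5 nt of the 5′ end. The usual last base was not the annotated one. Reads that stopped 3 bases short of it, at the first T of the run of T that ends the RNA, made up 67.6% and 69.4% of Rny3 reads in Dnmt3L KO and WT at 16.5 dpc, 70.6% and 77.4% in Dnmt3L KO and WT at 10 dpp, and 47.4% and 53.9% in Miwi2 KO and WT. Reads began mostly at base 74, with 40.7% of all Rny3 reads, or at base 75, with 30.8%. The most abundant Rny3 read, in capitals above, spans bases 75 to 99 (chr6:47781698-47781722) and had 82.5 and 32.7 RPM in Dnmt3L KO and WT at 16.5 dpc, 119 and 112 RPM in Dnmt3L KO and WT at 10 dpp, and 32.3 and 41.7 RPM in Miwi2 KO and WT. Its KO level was above the WT level in both Dnmt3L pairs and below it in the Miwi2 pair.

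The length of the Rny3 fragments differed between the libraries more than their total. Reads from the 3′ end of 18 to 28 nt had 304 and 191 RPM in Dnmt3L KO and WT at 16.5 dpc, a ratio of 1.60 (95% exact conditional binomial interval 1.55 to 1.64, counting error only). Those of 29 to 35 nt had 37.6 RPM in Dnmt3L KO and 77.0 RPM in Dnmt3L WT at that age, a ratio of 0.488 (0.461 to 0.518). At 16.5 dpc the KO pool thus held more of the shorter and less of the longer Rny3 fragment than the WT pool. In Miwi2 testes, the longer class had 34.2 RPM in KO and 16.3 RPM in WT, and the shorter class 227 RPM in KO and 211 RPM in WT. In the Dnmt3L libraries of 10 dpp the longer class had 3 reads in KO and 8 in WT, or 0.105 and 0.210 RPM.

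Rny1 had 65.1 RPM in Dnmt3L KO and 43.9 RPM in Dnmt3L WT testes at 16.5 dpc, 166 and 123 RPM in Dnmt3L KO and WT at 10 dpp, and 166 and 169 RPM in Miwi2 KO and WT at 10 dpp. The libraries of 16.5 dpc were the lowest pair. Unlike Rny3, Rny1 left fragments of both ends. Reads within 5 nt of its 3′ end had 29.7 and 16.6 RPM in Dnmt3L KO and WT at 16.5 dpc, 124 and 77.2 RPM in Dnmt3L KO and WT at 10 dpp, and 72.5 and 80.5 RPM in Miwi2 KO and WT. Reads within 5 nt of its 5′ end had 26.3 and 19.5 RPM in Dnmt3L KO and WT at 16.5 dpc, 1.53 and 4.36 RPM in Dnmt3L KO and WT at 10 dpp, and 62.6 and 59.1 RPM in Miwi2 KO and WT. The 5′ fragment was therefore a share of 35.0% to 44.4% of Rny1 reads in 4 libraries, and of 0.923% in Dnmt3L KO and 3.55% in Dnmt3L WT at 10 dpp. Bounds of these shares lay at most 2.29 percentage points from them (exact Clopper-Pearson, counting error only).

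The 5′ fragment of Rny1 was also the longer of its fragments. Its median length was 30 or 31 nt where it was abundant and 26 nt in both Dnmt3L libraries of 10 dpp. Its 29 to 35 nt reads had 21.5 and 15.5 RPM in Dnmt3L KO and WT at 16.5 dpc and 53.0 and 49.0 RPM in Miwi2 KO and WT, against 4 reads in Dnmt3L KO and 3 reads in Dnmt3L WT at 10 dpp. Its 18 to 28 nt reads differed less between the libraries, with 4.81 and 4.06 RPM in Dnmt3L KO and WT at 16.5 dpc, 1.39 and 4.28 RPM in Dnmt3L KO and WT at 10 dpp, and 9.67 and 10.1 RPM in Miwi2 KO and WT. Among reads of 24 to 28 nt, lengths that every library holds, the 5′ share of Rny1 was 13.0% and 17.8% in Dnmt3L KO and WT at 16.5 dpc, 0.835% and 4.03% in Dnmt3L KO and WT at 10 dpp, and 9.79% and 9.07% in Miwi2 KO and WT. At matched lengths, too, both Dnmt3L libraries of 10 dpp thus had the lowest 5′ shares. In Dnmt3L WT the level of these 5′ reads was not lower, with 3.84 RPM at 10 dpp and 3.78 RPM at 16.5 dpc. Its 3′ reads of 24 to 28 nt had 71.4 RPM at 10 dpp and 14.2 RPM at 16.5 dpc. In Dnmt3L KO the 5′ reads had 1.22 RPM at 10 dpp and 4.66 RPM at 16.5 dpc, and the 3′ reads 122 and 26.2 RPM. The most abundant 5′ read, bases 1 to 30 (chr6:47788151-47788180), had 499 and 292 reads in Dnmt3L KO and WT at 16.5 dpc, 1 and 2 reads in Dnmt3L KO and WT at 10 dpp, and 604 and 758 reads in Miwi2 KO and WT.

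The 3′ reads of Rny1 began at base 83, with 43.0% of all Rny1 reads, or at base 84, with 27.2%, and stopped most often 3 or 6 bases before the annotated end, with 19.4% to 54.6% and 10.6% to 28.7% of the Rny1 reads of a library. Others stopped 1 or 2 bases before it, with 3.12% to 8.43% and 5.06% to 10.4%. Those that stopped 6 bases short, mostly 23 or 24 nt long, count as inside the RNA under the limit of 5 nt. With 10 nt allowed, the 3′ share was 57.0% and 50.8% in Dnmt3L KO and WT at 16.5 dpc, 97.9% and 93.5% in Dnmt3L KO and WT at 10 dpp, and 60.5% and 63.6% in Miwi2 KO and WT. The 2 Y RNAs were compared base by base, without an alignment. The 27 bases that end 3 before the last base were identical at 20 positions (74.1%), the first 30 bases at 19 (63.3%), and the middle 27 bases at 4 (14.8%). The middle value does not show that the RNAs are unlike there. Both hold the stretch cagttacagatt in their middle, at base numbers that differ by 1. In a predicted minimum free energy fold, 63.0% of the bases of the main Rny1 3′ read and 76.0% of those of the main Rny3 read were paired, with 17 and 19 partners in the first 30 bases of the RNA.

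**Figure D2:**
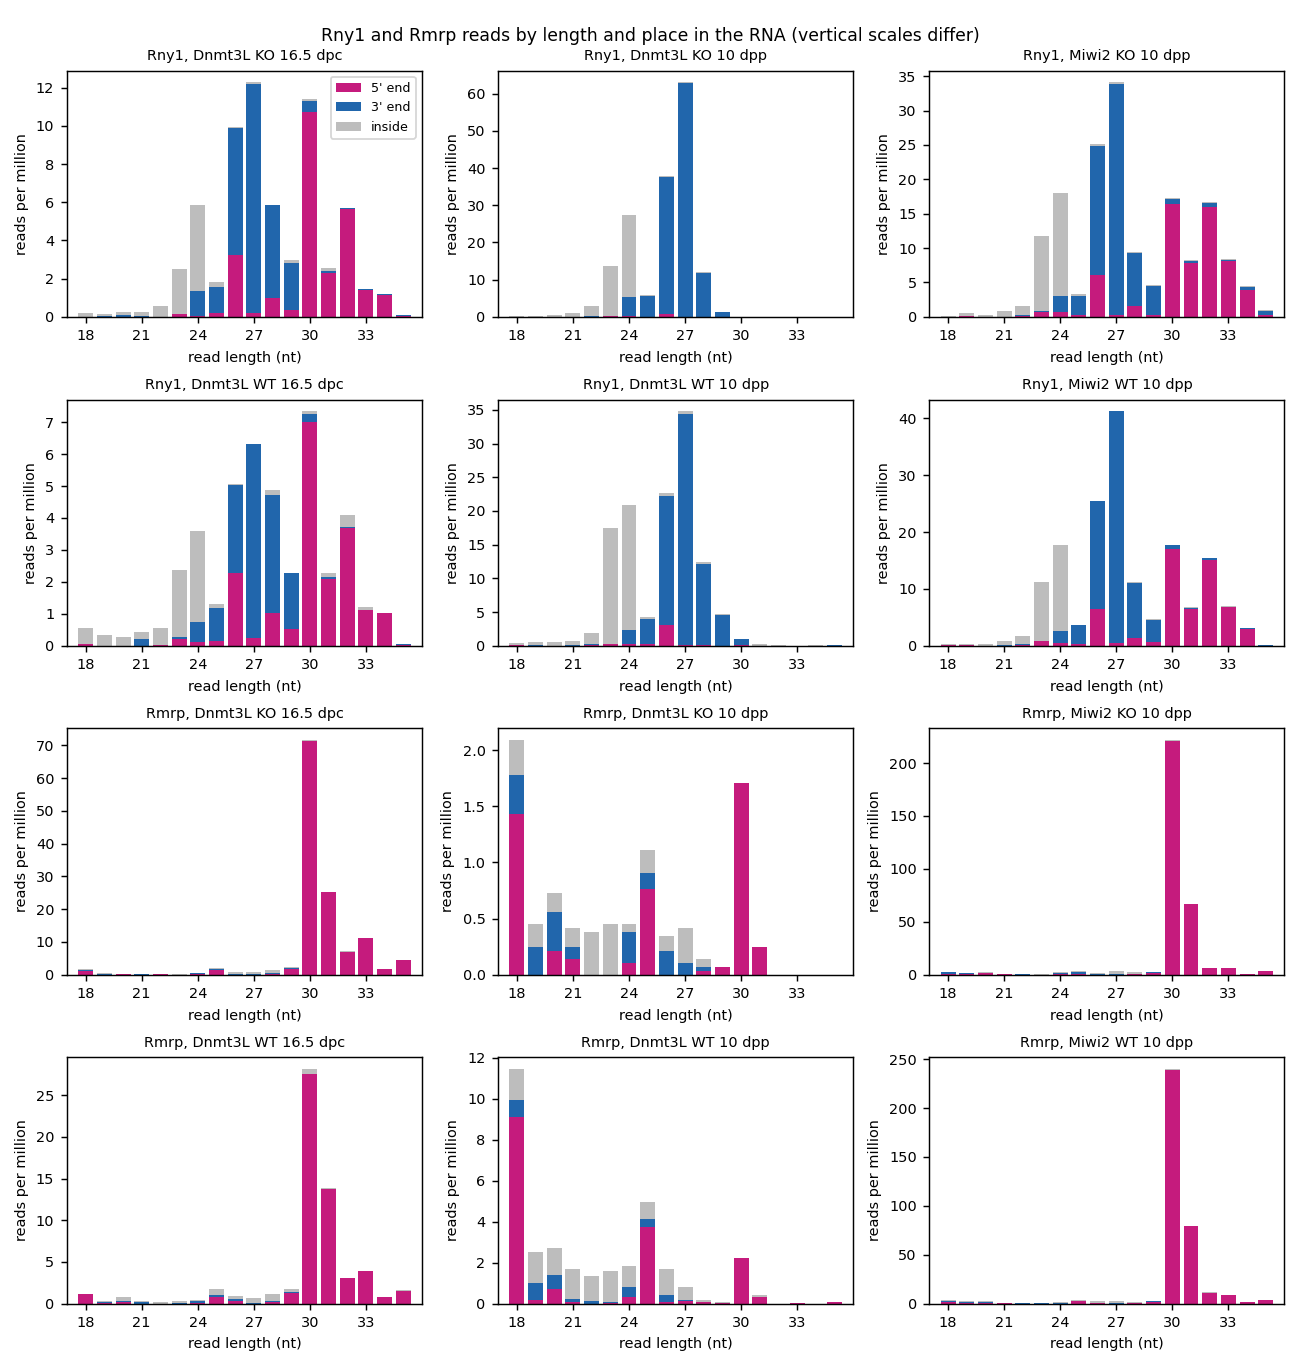
RPM of Rny1 (upper rows) and Rmrp (lower rows) by read length in nt in each library, coloured by place in the RNA: starting within 5 nt of the 5′ end, ending within 5 nt of the 3′ end, or inside; vertical scales differ. The bars of 29 to 35 nt at the 5′ end of Rny1 (49.0 and 53.0 RPM in Miwi2 testes) are nearly missing in both Dnmt3L libraries of 10 dpp, as are those of Rmrp (2.02 RPM in KO and 2.63 RPM in WT).

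Vaultrc5, the RNA of the vault particle, is 143 nt long and lies at chr18:36801866-36802008 on the plus strand. It had 8.00 RPM in Dnmt3L KO and 8.76 RPM in Dnmt3L WT at 16.5 dpc, 7.91 and 4.89 RPM in Dnmt3L KO and WT at 10 dpp, and 22.3 and 16.2 RPM in Miwi2 KO and WT. Both Miwi2 libraries were higher than the other 4. Its fragments came from the 3′ end, with a share of 93.1% and 93.3% in Dnmt3L KO and WT at 16.5 dpc, 77.5% and 61.8% in Dnmt3L KO and WT at 10 dpp, and 89.3% and 87.8% in Miwi2 KO and WT. These shares rest on 186 to 829 reads a library, and a bound lay up to 7.39 points from its share. Reads from the 5′ end made up at most 1.23%, and 0 of 378 reads in Dnmt3L KO at 16.5 dpc. The main start sites were base 117, with 40.4% of the reads, and base 118, with 16.2%. In the predicted fold, 66.7% of the bases of the main read, bases 117 to 140, were paired, 16 of them with the first 30 bases.

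Rn7sk had 16.7 RPM in Dnmt3L KO and 27.2 RPM in Dnmt3L WT at 16.5 dpc, 12.5 and 60.0 RPM in Dnmt3L KO and WT at 10 dpp, and 40.1 and 27.3 RPM in Miwi2 KO and WT. Dnmt3L WT at 10 dpp was the highest and Dnmt3L KO of that age the lowest library. The gene is uncertain, since only 11.9% of its reads were found in no other annotated gene. Its fragments came mostly from inside the RNA. Reads inside the RNA made up 90.2% to 98.8%, reads from the 5′ end 1.18% to 9.85%, and reads from the 3′ end at most 0.174%. Base 201 was the start of 13.3% of the reads in Dnmt3L WT at 16.5 dpc, and of 0% to 4.80% in the other libraries. Over the 6 libraries together, the most frequent start, base 55, took 3.45% of the reads. The read that starts there, bases 55 to 76 (chr9:78175558-78175579), had 7 and 92 reads in Dnmt3L KO and WT at 16.5 dpc, 12 and 28 in Dnmt3L KO and WT at 10 dpp, and 25 and 13 in Miwi2 KO and WT.

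Rmrp varied most, with 132 RPM in Dnmt3L KO and 61.1 RPM in Dnmt3L WT at 16.5 dpc, 9.02 and 33.5 RPM in Dnmt3L KO and WT at 10 dpp, and 332 and 372 RPM in Miwi2 KO and WT. Both Miwi2 libraries were the highest and both Dnmt3L libraries of 10 dpp the lowest. Most of its reads came from 1 start site. The read of bases 5 to 34 (chr4:43493030-43493059) had 71.4 and 27.5 RPM in Dnmt3L KO and WT at 16.5 dpc, 1.67 and 2.21 RPM in Dnmt3L KO and WT at 10 dpp, and 221 and 239 RPM in Miwi2 KO and WT. Reads that begin at base 5 were 36194 of 39448, or 91.8%. GENCODE holds a second, shorter Rmrp model (chr4:43492788-43493058) that begins 1 base after this start, so that 94.4% of the reads are found in the longer model alone. With the shorter model the gene had 5.25 and 5.03 RPM in Dnmt3L KO and WT at 16.5 dpc, 2.61 and 12.6 RPM in Dnmt3L KO and WT at 10 dpp, and 13.9 and 15.3 RPM in Miwi2 KO and WT. The gene also overlaps Ccdc107 on the opposite strand over 164 nt, and 5 antisense reads were found in all.

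The Rmrp fragment was long in 4 libraries and short in 2. Its 5′ reads of 29 to 35 nt had 122 and 51.9 RPM in Dnmt3L KO and WT at 16.5 dpc, 2.02 and 2.63 RPM in Dnmt3L KO and WT at 10 dpp, and 305 and 344 RPM in Miwi2 KO and WT. Its 5′ reads of 18 to 28 nt had 2.88 and 2.69 RPM in Dnmt3L KO and WT at 16.5 dpc, 2.68 and 14.3 RPM in Dnmt3L KO and WT at 10 dpp, and 4.03 and 6.04 RPM in Miwi2 KO and WT. In the shorter class Dnmt3L WT at 10 dpp was thus the highest library, not among the lowest. That level is uncertain, since part of the Rmrp reads of 10 dpp was shared. In Dnmt3L KO and WT at 10 dpp, 84.6% and 73.0% of the Rmrp reads were found in no other annotated gene. In the other 4 libraries it was 98.2% to 99.8%. The short reads, those of 18 nt among them, may thus belong in part to another gene. The most frequent Rmrp length was 30 nt in 4 libraries and 18 nt in both Dnmt3L libraries of 10 dpp. The 5′ share was 94.6% and 89.2% in Dnmt3L KO and WT at 16.5 dpc, 52.1% and 50.5% in Dnmt3L KO and WT at 10 dpp, and 93.3% and 94.3% in Miwi2 KO and WT. Among reads of 24 to 28 nt the order was another, with 27.9% and 29.1% in Dnmt3L KO and WT at 16.5 dpc, 36.6% and 45.4% in Dnmt3L KO and WT at 10 dpp, and 10.1% and 19.6% in Miwi2 KO and WT. Both Dnmt3L libraries of 10 dpp then had the highest shares. In the predicted fold, 80.0% of the bases of the 30 nt fragment were paired, none of them with the first 30 bases of the RNA.

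Rpph1 had 6.99 RPM in Dnmt3L KO and 8.50 RPM in Dnmt3L WT at 16.5 dpc, 5.85 and 24.4 RPM in Dnmt3L KO and WT at 10 dpp, and 33.8 and 30.9 RPM in Miwi2 KO and WT. The level is uncertain, since the gene shares 284 nt with Ccnb1ip1 on the same strand and 38.7% of its reads were found in no other annotated gene. The most abundant read within the annotation, bases 286 to 313 (chr14:50807455-50807482), was found in no other gene and had 46 and 0 reads in Dnmt3L KO and WT at 16.5 dpc, 20 and 113 in Dnmt3L KO and WT at 10 dpp, and 133 and 82 in Miwi2 KO and WT. By the annotation, 72.1% to 95.3% of its reads lay inside the RNA, the main read among them, since it stops 6 bases short of the end. With 10 nt allowed, the 3′ share was 24.2% and 0.556% in Dnmt3L KO and WT at 16.5 dpc, 33.3% and 32.2% in Dnmt3L KO and WT at 10 dpp, and 39.1% and 20.7% in Miwi2 KO and WT. A further 2607 reads matched at least its last 14 bases, rather than matching in full, and ran past the annotated end by 37 different extensions. Of these reads, 1770 ran on by the same 4 bases, ctct, in capitals in the read shown above. These bases were not compared with the genome, whose sequence beside the gene was not used here. The reads past the end numbered 434 and 208 in Dnmt3L KO and WT at 16.5 dpc, 185 and 332 in Dnmt3L KO and WT at 10 dpp, and 897 and 551 in Miwi2 KO and WT. Together with them, the 3′ share of Rpph1 was 60.5% (95% exact Clopper-Pearson interval 56.9 to 63.96%) in Dnmt3L KO and 37.0% (33.0 to 41.1%) in Dnmt3L WT at 16.5 dpc. At 10 dpp it was 55.8% (50.5 to 61.1%) in Dnmt3L KO and 35.7% (33.1 to 38.5%) in Dnmt3L WT, and 57.3% (55.2 to 59.4%) in Miwi2 KO and 38.5% (36.4 to 40.7%) in Miwi2 WT. The share was higher in the KO pool of all 3 pairs, by more than counting error, and the spread between pools was not measured. Without the reads past the end it was lower in the KO pool of Dnmt3L testes at 10 dpp, 7.14% against 12.8% in WT. It is a pattern noticed after its values were seen.

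**Figure D3:**
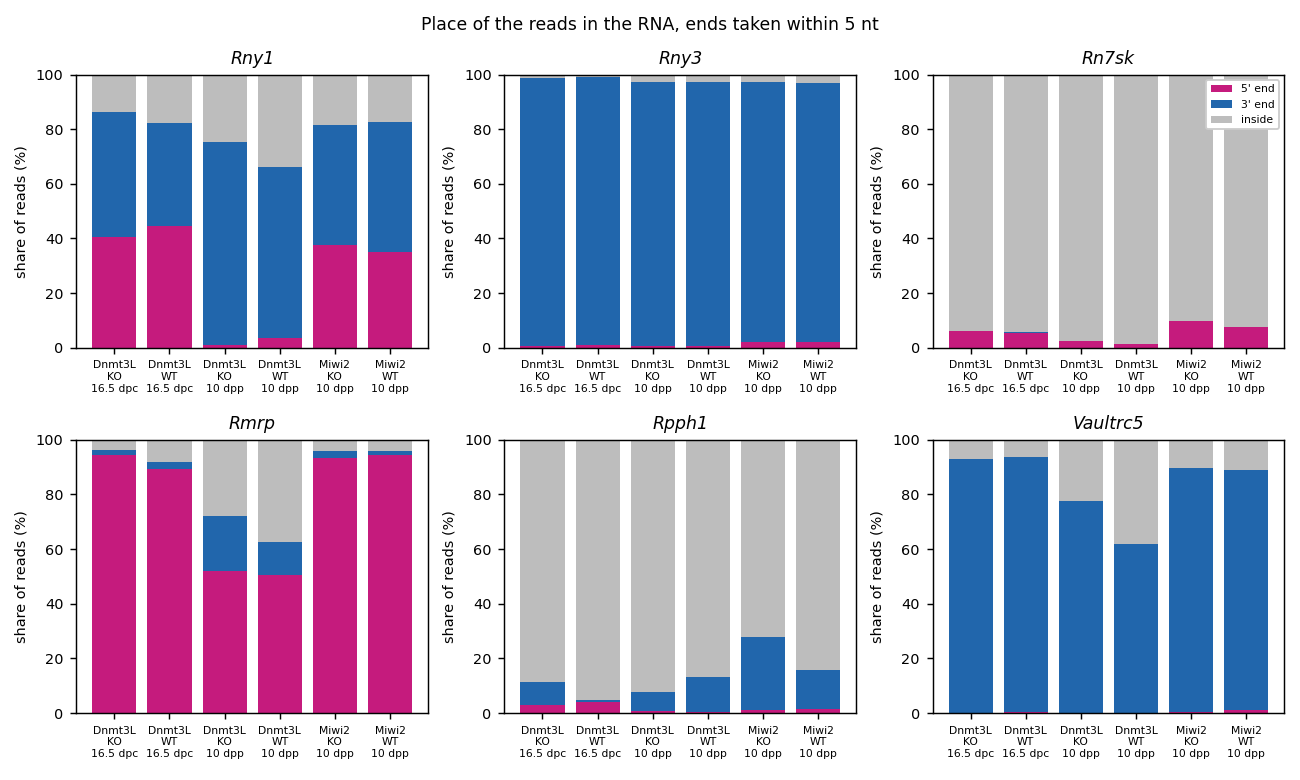
Share of the reads of each RNA, in percent, that start within 5 nt of the annotated 5′ end, end within 5 nt of the annotated 3′ end or lie inside, in each of the 6 libraries, without the reads that run past an annotated end. Rny3 and Vaultrc5 are 3′ fragments, Rmrp is a 5′ fragment (50.5% to 94.6%), Rn7sk and Rpph1 lie mostly inside by this limit, and the 5′ share of Rny1 is 0.923% and 3.55% in the Dnmt3L libraries of 10 dpp.

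**Figure D4:**
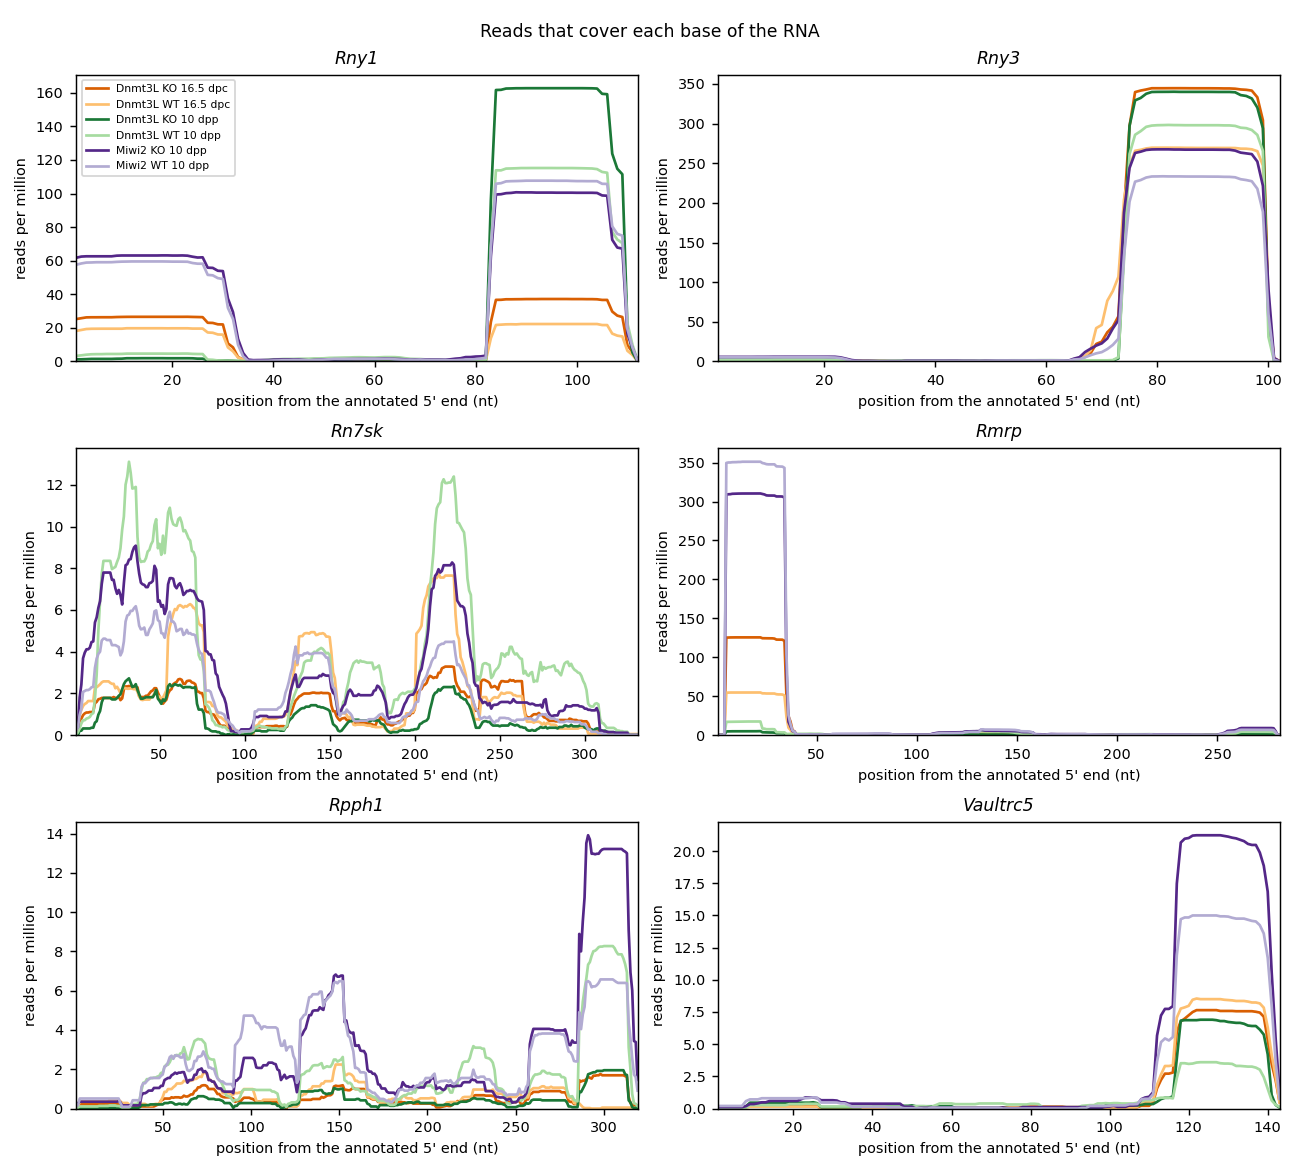
RPM of the reads that cover each base of each RNA, by distance in nt from the annotated 5′ end; each line is 1 library and vertical scales differ. Fragments form single blocks at the 3′ end of Rny3 and Vaultrc5 and the 5′ end of Rmrp, and a pair of blocks in Rny1. They spread over Rn7sk, and over Rpph1 with a peak near the 3′ end, between bases 291 and 300, in each library but Dnmt3L WT of 16.5 dpc.

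The comparisons of KO with WT asked whether these fragments move with the loss of Dnmt3L or Miwi2. For want of replicates, the difference between the Miwi2 WT and Dnmt3L WT pools of 10 dpp was taken as the measure of how far pools differ without a knockout. Over 938 structured RNA genes with at least 100 reads over both libraries, 95% of the absolute log2 ratios lay below 4.35, or 20.3-fold, and a gene was called only past that limit. The limit also holds the difference in read length described above. Rmrp shows it among the members, with 372 RPM in Miwi2 WT and 33.5 RPM in Dnmt3L WT, a log2 ratio of 3.47. Cell markers also moved within the pairs. The germ cell miRNA genes summed to 3190 RPM in Dnmt3L KO and 3738 RPM in Dnmt3L WT at 16.5 dpc, 14039 and 39191 RPM in Dnmt3L KO and WT at 10 dpp, and 42368 and 22957 RPM in Miwi2 KO and WT. In both pairs of 10 dpp, Mir34c and Mir449a of this list went against the sum, and the others went with it. Mir34c had 220 and 58.2 RPM in Dnmt3L KO and WT at 10 dpp, and 106 and 172 RPM in Miwi2 KO and WT. Mir449a had 96.0 and 3.15 RPM, and 3.47 and 59.9 RPM, in the same libraries. Mir202 had 54.2 and 30.3 RPM in Dnmt3L KO and WT at 16.5 dpc, 425 and 255 RPM in Dnmt3L KO and WT at 10 dpp, and 309 and 187 RPM in Miwi2 KO and WT. Their part in the ratios below was not tested.

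At 16.5 dpc, 0 of 6 members passed the limit between Dnmt3L KO and WT, against 0% of 686 structured RNA genes. Rmrp had the highest ratio, 2.17 (2.07 to 2.27), or 1.12 on the log2 scale, above 95.9% of the structured RNA genes, whose median was −0.08. It rests on the 5′ fragment, since with the shorter gene model the log2 ratio was 0.06, and with reads of 18 to 28 nt it was 0.17. Both Y RNAs were higher in KO, with a ratio of 1.48 (1.40 to 1.57) for Rny1 and 1.27 (1.24 to 1.30) for Rny3, but not when each distinct sequence was counted once, at −0.07 and −0.13 on the log2 scale. Rn7sk had a ratio of 0.616 (0.562 to 0.675) and Rpph1 of 0.822 (0.706 to 0.957). For Rpph1 with the reads past its end the ratio was 1.21 (1.08 to 1.35), and with reads of no other gene Rn7sk had a log2 ratio of 0.51 and Rpph1 of 0.83, so the direction of both is uncertain. The interval of Vaultrc5, 0.790 to 1.06, held equal levels. Past a 2-fold difference, 1 of 6 members was higher in KO, Rmrp, against 4.66% of the structured RNA genes.

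At 10 dpp, again 0 of 6 members passed the limit between Dnmt3L KO and WT, against 0% of 897 structured RNA genes. The genes as a whole were lower in KO, by an amount that hung on how shared reads were counted. Their median log2 ratio was −0.82 with reads of no other gene and −1.67 with reads divided over genes. It was −2.22 as counted here, with a read counted in each gene that holds it. Rn7sk (−2.27), Rpph1 (−2.06) and Rmrp (−1.89) lay near −2.22, at ratios of 0.208, 0.240 and 0.269. These 3 of 6 were lower by more than 2-fold, against 84.1% of the structured RNA genes, so their share was not above that of all genes. Rny1, Rny3 and Vaultrc5 did not. Their ratios were 1.35 (1.30 to 1.41), 1.14 (1.11 to 1.17) and 1.62 (1.33 to 1.98), though Rny3 was at −0.05 on the log2 scale when scaled to miRNA reads, and they stood above 96.1% to 98.4% of the structured RNA genes. Of all these genes, 47 of 897 (5.24%) had a ratio above 1. The 3 members above 1 are the RNAs of 102 to 143 nt, whose reads at this age lay mostly at the 3′ end, and the 3 below 1 are those of 281 to 331 nt. rRNA fragments in the same libraries had 1159 RPM in KO and 5258 RPM in WT, and miRNA genes 755411 RPM in KO and 642586 RPM in WT. The part of these differences in the members' ratios was not tested. Scaled to the structured RNAs by TMM, the median moved to −0.49 and the log2 ratios to 2.16 for Rny1, 1.91 for Rny3, 2.42 for Vaultrc5, −0.54 for Rn7sk, −0.33 for Rpph1 and −0.17 for Rmrp.

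In Miwi2 testes, 0 of 6 members passed the limit, against 0.123% of 814 structured RNA genes. Ratios of KO to WT lay between 0.893 (0.872 to 0.914) for Rmrp and 1.47 (1.36 to 1.59) for Rn7sk, and the median log2 ratio of the structured RNA genes was 0.16. Vaultrc5 had a ratio of 1.37 (1.24 to 1.52) and Rny3 of 1.15 (1.11 to 1.18), though Rny3 was at −0.07 on the log2 scale with DESeq2 size factors. The interval of Rny1, 0.950 to 1.02, held equal levels. None of the 6 differed by more than 2-fold, against 3.19% of the structured RNA genes. Rpph1 had a ratio of 1.09 (1.01 to 1.18), and of 1.34 (1.26 to 1.43) with the reads past its end. The direction of Rpph1 is uncertain. Without those reads it was at −0.13 on the log2 scale with DESeq2 size factors and at −0.11 with reads of 18 to 28 nt.

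**Figure D5:**
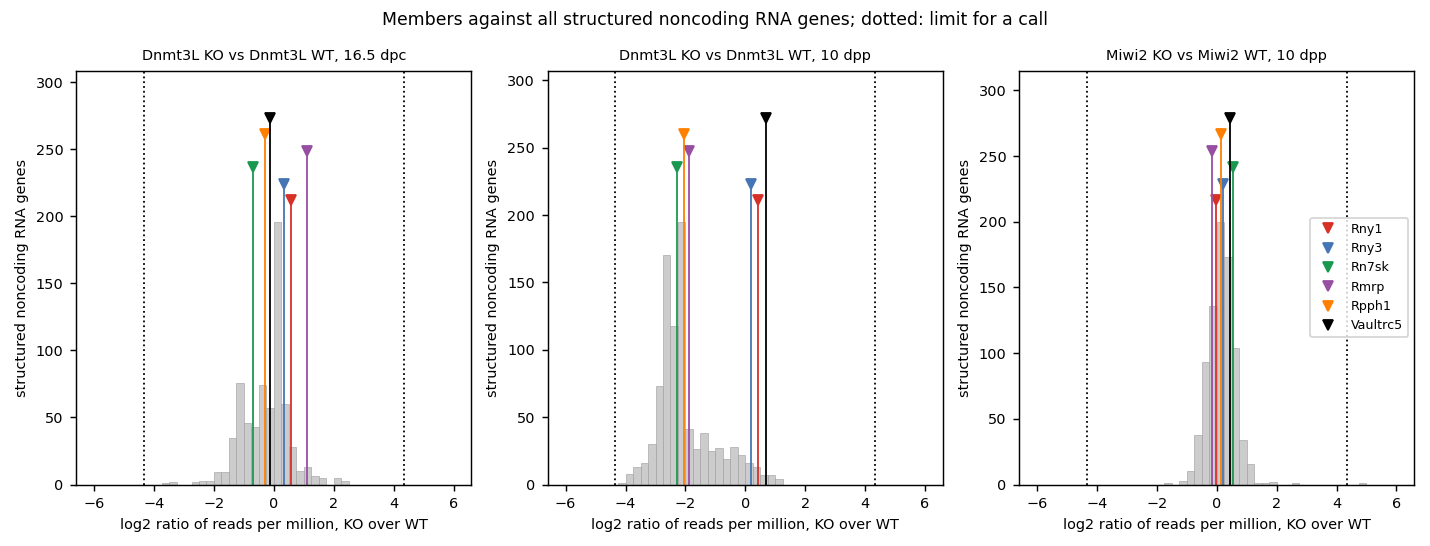
Log2 ratio of RPM, KO over WT, of the 6 RNAs (coloured markers) over the histogram of all structured noncoding RNA genes with at least 100 reads, for the 3 pairs; dotted lines mark the limit of 4.35 in either direction. In Dnmt3L testes at 10 dpp, Rny1, Rny3 and Vaultrc5 lie right of the bulk of genes, whose median is −2.22.

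The same genotypes at both ages compare Dnmt3L testes of 10 dpp with those of 16.5 dpc, and with them libraries of different read length. In WT, 0 of 6 members passed the limit, against 12.0% of 914 structured RNA genes, whose median log2 ratio was 2.36. With reads of no other gene that median was 0.15, and with reads divided over genes 1.05. Rpph1 (ratio 2.88), Rny1 (2.80) and Rn7sk (2.21) were higher at 10 dpp by more than 2-fold, 3 of 6 members against 77.8% of the structured RNA genes. Rny3 was at 1.11, and Vaultrc5 (0.558) and Rmrp (0.548) were lower. Under TMM the median was 0.15 and the log2 ratio of Rny1 −0.73, and no direction of Rny1, Rn7sk, Rpph1 or Rny3 with age in WT held under every scaling. In KO, 0 of 6 passed, against 1.53% of 719 genes with a median of 0.24, or −0.78 with reads of no other gene. Rmrp had a ratio of 0.0681 (0.0599 to 0.0772) and a log2 ratio of −3.88, lower than all but 2.23% of the genes, and Rny1 a ratio of 2.55 (2.44 to 2.67), though it was at −0.19 on the log2 scale when scaled to miRNA reads. These were the members past 2-fold, 1 lower against 12.9% and 1 higher against 20.7% of the genes. Limited to reads of 20 to 28 nt, a range every library holds, Rmrp was at −0.59 in KO and 1.42 in WT on the log2 scale. In the same range Rny1 was at 2.06 in KO and 2.22 in WT, and Vaultrc5 at 0.39 in KO and −0.30 in WT. These comparisons share their libraries with the KO and WT comparisons above.

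Other housekeeping RNAs were read the same way. Of 20 listed genes of 7SL, telomerase RNA, Bc1, the spliceosomal and U3 RNAs, Rnu7 and Rnu73b, 18 were annotated. Of 17 with enough reads in Dnmt3L testes at 10 dpp, 0 had a KO level above WT, against 5.24% of 897 structured RNA genes. Their median log2 ratio was −1.43. At 16.5 dpc 3 of 17 were above WT, against 47.5% of 686 structured RNA genes, with a median of −0.65. In Miwi2 testes the median of 18 was 0.01. Some listed genes have the same counts, such as Rnu1b1 and Rnu1b2 or Rnu3b1 and Rnu3b3, so they are not independent. The only one past the limit in any of the 5 comparisons was Terc, the telomerase RNA, with 0.348 RPM in Dnmt3L KO at 10 dpp and 9.27 RPM in Dnmt3L KO at 16.5 dpc. In that comparison, which also compares libraries of different read length, 1.53% of 719 structured RNA genes passed. The log2 ratio of Terc with age was −4.73 in KO and −3.58 in WT. The floor of 3 counts was 0.105 RPM in Dnmt3L KO at 10 dpp. The one with most reads was Rn7s1, the 7SL RNA of the signal recognition particle, which shares all of them with Rn7s2, with 62.1 and 111 RPM in Dnmt3L KO and WT at 16.5 dpc, 57.0 and 350 RPM in Dnmt3L KO and WT at 10 dpp, and 531 and 625 RPM in Miwi2 KO and WT. For the mRNAs of 19 proteins of these particles, such as Ssb (La), Mvp and Larp7, the reads used were few. They were 585 of 169391 reads found for Mvp, 55 of 139049 for Rpp30 and 362 of 73905 for Trove2. For Ssb all 107 were used. Between 3 and 8 of these mRNAs had enough used reads in a comparison, and 0 passed the limit.

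For each member the structured RNA gene with the most similar profile over the 6 libraries was sought among 575 genes, as the lowest root mean square difference of centred log2 levels. For Rpph1 it was the snRNA gene Gm22220, at 0.16, with 32.01 and 39.8 RPM in Dnmt3L KO and WT at 16.5 dpc, 27 and 110 RPM in Dnmt3L KO and WT at 10 dpp, and 121 and 160 RPM in Miwi2 KO and WT. Next came the snRNA gene Gm24265 at 0.19. For Rny1 they were the snoRNA genes Snord87 (0.29) and Gm25855 (0.40), for Rn7sk the U3 genes Rnu3b1 and Rnu3b3 (0.34), for Vaultrc5 the snoRNA genes Snora36b (0.35) and Gm23969 (0.42), and for Rny3 AF357341 and Gm24148 (0.40). For Rmrp they were the snoRNA genes Gm25632 and Gm22192, which have the same counts, at 0.37. They had 257 and 239 RPM in Dnmt3L KO and WT at 16.5 dpc, 30.1 and 71.9 RPM in Dnmt3L KO and WT at 10 dpp, and 746 and 830 RPM in Miwi2 KO and WT.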

How the data were processed

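The deposited files list each distinct read sequence and its count, per the file values whole numbers with no header. Per the labels' protocols, Trizol total RNA was size-selected to 18 to 35 nt and made into TruSeq small RNA libraries. The submitters' processing notes name the genome build mm9. How reads were trimmed or aligned is not given in the sources used here. All coordinates here are GRCm38, from GENCODE vM21.

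Reads of 18 to 35 nt were searched without mismatch with Python 3.11.15 and scaled to RPM by the deposited total of each library. The search covered the longest GENCODE transcript of each structured RNA gene, miRNA gene and listed protein gene. Only reads found in a member or a listed protein gene were then searched in all 141767 GENCODE transcripts for other genes. A read found in several genes counts in each, except in the protein mRNAs, where only part of the reads found was used. Where Rmrp has 2 annotated genes, the longer was used. A read belongs to an end when it starts or stops within 5 nt of it. Folds were predicted with ViennaRNA 2.7.2. Ratios carry 95% exact conditional binomial intervals, levels exact Poisson intervals and shares exact Clopper-Pearson intervals. These cover counting error only, since reads carry no molecular identifiers. The floor of 3 counts was 0.0635 to 0.105 RPM. Groups follow the labels, and each holds 1 library, so no test was run.

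A member was called past the 95th percentile of absolute log2 ratios between both WT pools of 10 dpp. edgeR 4.0.16 and DESeq2 1.42.0 gave scaling factors only. The alternatives were 16 planned ones and 5 added after seeing the data: identical genes once, both length ranges held by every library (24 to 28 nt for positions, 20 to 28 nt for ratios), the shorter Rmrp model, and Rpph1 with reads past its end. Placement was checked on simulated reads. Named were all members, the 2 genes nearest to each in profile with at least 1000 reads (log2 of RPM plus 0.1), each member's most abundant reads, and list genes past the limit or highest. Members and lists were chosen with earlier results of these data known.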

Additional observations from a re-analysis of the deposited data

Results flagged for a closer look

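Rmrp, Dnmt3L KO over WT, had a log2 ratio of −1.89 at 10 dpp and 1.12 at 16.5 dpc, opposite in sign in 1 library of each group. The difference between the ages was not tested. The value at 10 dpp lay near the median of the structured RNA genes, −2.22, a median that was −0.82 with reads of no other gene. Under TMM the Rmrp value was −0.17, and with DESeq2 size factors −0.05. The value at 16.5 dpc was 0.06 with the shorter gene model.

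Reads over 35 nt lie outside the size range that the libraries were made for and entered the comparisons only in the alternative of every read of 18 nt or longer. The pairs below are those where they stood above the WT level in the KO library. Rny1 in Dnmt3L testes at 10 dpp was the other way, with 0 RPM in KO and 0.158 RPM in WT. For Rmrp they had 39.4 RPM in Dnmt3L KO and 2.97 RPM in Dnmt3L WT at 16.5 dpc, 1.32 RPM in Dnmt3L KO and 0 RPM in Dnmt3L WT at 10 dpp, and 84.2 RPM in Miwi2 KO and 73.0 RPM in Miwi2 WT. For Rny3 they had 2.73 RPM in Dnmt3L KO and 1.89 RPM in Dnmt3L WT at 16.5 dpc, and 7.74 RPM in Miwi2 KO and 1.96 RPM in Miwi2 WT. For Rny1 they had 0.699 and 0.0944 RPM in Dnmt3L KO and WT at 16.5 dpc, and 1.48 and 0.889 RPM in Miwi2 KO and WT. For Rn7sk they had 0.805 and 0.283 RPM in Dnmt3L KO and WT at 16.5 dpc, and 3.87 and 1.64 RPM in Miwi2 KO and WT. For Vaultrc5 they had 1.40 and 0.401 RPM in Dnmt3L KO and WT at 16.5 dpc, and 2.82 and 2.04 RPM in Miwi2 KO and WT. In Dnmt3L testes at 10 dpp Vaultrc5 had 2 such reads in KO and 1 in WT, or 0.0697 and 0.0263 RPM. For Rpph1 they had 3.30 RPM in Miwi2 KO and 1.89 RPM in Miwi2 WT. In Dnmt3L testes at 16.5 dpc Rpph1 had 18 such reads in KO and 13 in WT, or 0.381 and 0.307 RPM.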

How the results depend on the processing

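No member passed the limit in any of the 5 comparisons as reported. In Dnmt3L KO testes, 10 dpp over 16.5 dpc, the count became 1, Rmrp lower, under scaling by miRNA reads, TMM or DESeq2 size factors, with reads of no other gene, with reads divided over genes and with 24 to 32 nt. With a 2-fold limit the count was 1 at 16.5 dpc (Rmrp higher), 3 in Dnmt3L testes at 10 dpp (Rn7sk, Rmrp and Rpph1 lower), 3 with age in WT (Rny1, Rn7sk and Rpph1 higher) and 2 with age in KO (Rny1 higher, Rmrp lower). No member was past 2-fold between Miwi2 KO and WT. Of 540 recomputed log2 ratios of members, 357 stayed within counting error, 183 moved and 43 changed sign; of 126 end shares, 39 stayed and 87 moved. The cause was not tested, other than where fewer lengths or genes enter by construction. With 1 library per group no replicate could be left out. No paired analysis was possible because each group is 1 library and the labels give no replicate numbers. Depth limits the least abundant end classes, at or near the floor of 3 counts.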
